A study of Homo sapiens with 6 samples.

Results

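The genes described here are 32 known targets of the transcription factor p53, picked by name from the 33539 genes of the deposited table; all 32 names were found. Polyadenylated RNA was sequenced from the anaplastic thyroid cancer cell line 8505C, 24 h after an siRNA was given. In 3 libraries the siRNA was directed against POLR1F (siPOLR1F), a subunit of RNA polymerase I, and in 3 libraries it was a negative control (NC). All libraries come from this single line. Whether the libraries of 1 group were separate cultures is not stated, so the p-values rest on a spread that may be technical. In such bulk RNA, fewer cells expressing a gene and less of its RNA per cell cannot be told apart. Silencing a subunit of RNA polymerase I bears on p53, since impaired ribosome production is a known trigger of the p53 pathway.

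p53 is switched on by DNA damage and by other stresses. In unstressed cells the ubiquitin ligase MDM2 keeps its level low, and when ribosome assembly is disturbed free ribosomal proteins RPL5 and RPL11 bind MDM2 and relieve p53 of this control. Active p53 binds pairs of decamers in promoters and introns and raises the transcription of genes for cell cycle arrest, DNA repair, metabolism and apoptosis, and of its own inhibitors. The list holds genes known to respond to p53 elsewhere; which factor sets their level in 8505C cells was not tested.

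To show what the p53 motif looks like in front of genes of the list, promoter windows of 300 bases were searched. Each ran from 250 before to 50 after a RefSeq transcription start (GRCh38.p14), with a single start kept per gene symbol. The search was for the p53 consensus decamer and for pairs of decamers. A pair was at most 13 bases apart and had at most 2 mismatches in all, with the central C and G of each decamer kept; the consensus reads the same on both strands. Of 24 promoters matched by symbol, 3 held a perfect decamer (12.5%), against 6.54% of all 27305 promoters, and 2 held a pair (8.33%), against 2.94% of all. Among the 9623 promoters of tested genes, 5.01% held a perfect decamer and 2.26% a pair. Counts of 3 and 2 among 24 promoters are too few to show an excess. The decamers are in capitals below, on the strand of the gene. That of AEN (chr15:88621306-88621325, plus strand) begins 34 bases before the start, that of FDXR (chr17:74872996-74873025, minus strand) 31 bases before it, and the single decamer of PLK2 (chr5:58460201-58460226 with flanks, minus strand) 132 bases before it.
AEN: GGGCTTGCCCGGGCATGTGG
FDXR: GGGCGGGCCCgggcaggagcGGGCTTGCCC
PLK2: gcgggacaAGACTTGCTTcccggcca
Among these 3 genes AEN was higher after POLR1F silencing, while FDXR and PLK2 did not pass the test, as described below. The other 21 promoters hold no such letters in this window, which says nothing about sites elsewhere in these genes.

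The libraries held between 60576788 and 63038378 counts each, of which mitochondrial transcripts made up 4.85%, 4.41% and 4.32% in the siPOLR1F libraries and 5.15%, 4.93% and 4.99% in the NC libraries. POLR1F itself had 575, 395 and 413 counts in siPOLR1F libraries, against 2446, 2246 and 2095 in NC libraries, and the log2 fold change was -2.30 (SE 0.15; edgeR adjusted p = 9.76e-05). Of the thyroid markers NKX2-1 was at 27.5 ± 1.62 FPKM in siPOLR1F and 45.2 ± 3.02 FPKM in NC (SD, n = 3 each), whereas TG, TSHR and SLC5A5 were below 0.03 FPKM in every library. Of 3 mesenchymal markers FN1 fell, at 38.3 ± 4.87 FPKM in siPOLR1F and 52.2 ± 3.07 FPKM in NC (log2 fold change -0.44; edgeR adjusted p = 0.0126), while VIM, at 674 ± 10.9 FPKM in siPOLR1F and 671 ± 29.1 FPKM in NC, and CDH2 did not pass. Of 4 epithelial markers tested KRT8 fell, at 98.0 ± 5.15 FPKM in siPOLR1F and 117 ± 6.73 FPKM in NC (-0.25; edgeR adjusted p = 0.0197), and KRT18, KRT19 and EPCAM did not pass. Of the leukocyte markers PTPRC was below 0.01 FPKM in every library, whereas CD14 was at 1.57 ± 0.295 FPKM in siPOLR1F and 1.57 ± 0.0340 FPKM in NC. Of the endothelial markers CDH5 was at 2.72 ± 0.671 FPKM in siPOLR1F and 5.65 ± 0.223 FPKM in NC, while PECAM1 and VWF stayed under 1 FPKM. VWF was uneven within both groups, with 446, 519 and 0 counts in siPOLR1F libraries and 12, 381 and 28 in NC libraries. The part of these markers in the results below was not tested.

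The p53 targets covered a wide range of levels in both groups. FPKM values are fragment counts per length of the gene and per depth of the library, which allows levels of different genes to be set side by side. The most abundant was GADD45A, which encodes a stress-induced protein of growth arrest and DNA repair, at 55.9 ± 8.61 FPKM in siPOLR1F and 52.0 ± 1.76 FPKM in NC (SD, n = 3 each). PLK2, TNFRSF10B, CCNG1 and PMAIP1 followed, all between 20.1 and 38.5 FPKM in every library. At the other end, 4 of the 32 fell below a mean of 0.5 FPKM over the 6 libraries and were not tested. They were EDA2R, a receptor for an ectodysplasin isoform (90 to 123 counts in siPOLR1F and 83 to 106 in NC), TP53I11 (32 to 69 counts in siPOLR1F and 32 to 62 in NC), the decoy receptor gene TNFRSF10C (8 to 19 counts in siPOLR1F and 0 to 6 in NC) and SPATA18, a gene of mitochondrial quality control (0 to 5 counts in siPOLR1F and 0 to 4 in NC). The counts of EDA2R, TP53I11 and SPATA18 overlapped between the groups, and those of TNFRSF10C are too few for a comparison at this depth. For 5 genes the deposited FPKM and counts imply a gene length well above the summed exons in GENCODE release 29. It was 7.75 times these exons for FAS, 2.64 times for POLH, 2.62 times for TIGAR, 2.08 times for PPM1D and 1.59 times for SESN1. Their FPKM are thus low relative to the other genes, which bears on the filter. FAS, at a mean of 0.649 FPKM, lies near the filter at 0.5 FPKM and below the alternative filter at 1 FPKM. The length itself cancels in comparisons of 1 gene between libraries. Whether the counts of these 5 genes include reads from outside the GENCODE exons was not tested.

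**Figure D1:**
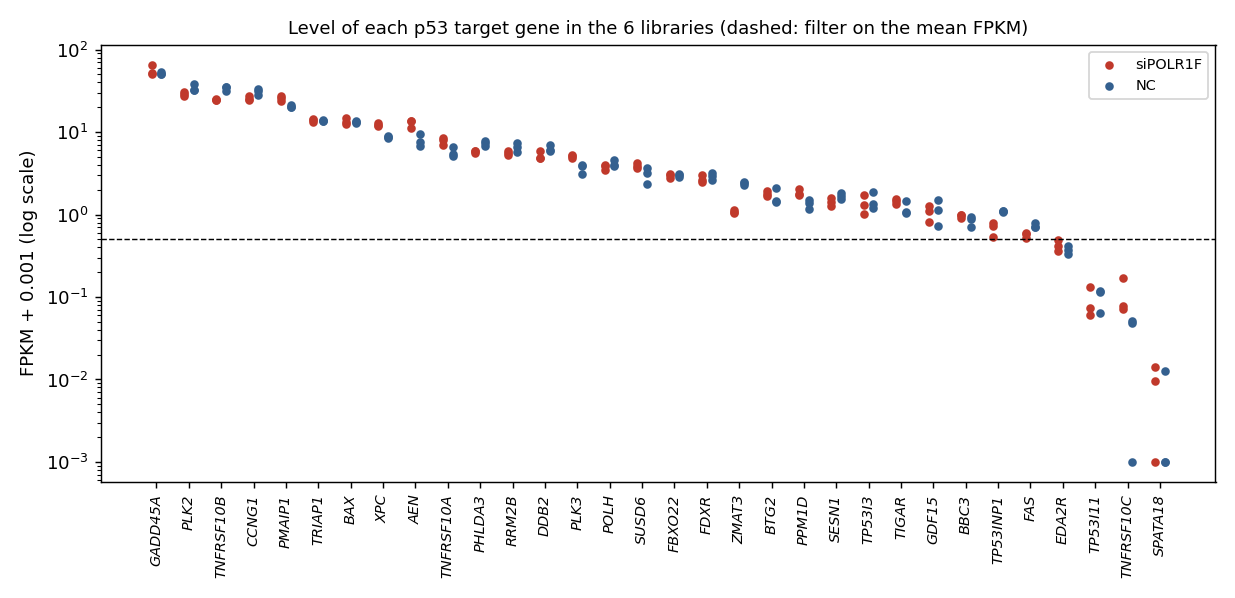
FPKM of each of the 32 p53 target genes (log axis, with 0.001 added) in the 3 siPOLR1F and the 3 NC libraries, 1 point per library, ordered by mean level. The dashed line is the filter at a mean of 0.5 FPKM, below which the 4 untested genes lie; GADD45A is at the top with over 50 FPKM in every library.

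The targets split in both directions. Of the 28 tested, 6 were higher in siPOLR1F (21.4%; AEN, XPC, TNFRSF10A, PLK3, PPM1D and PMAIP1) and 5 were lower (17.9%; ZMAT3, TP53INP1, TNFRSF10B, FAS and PHLDA3), by edgeR's quasi-likelihood test at a Benjamini-Hochberg adjusted p below 0.05 over all 13564 genes tested. Of all those genes, 10.3% were higher and 6.94% lower, and 39.3% of the targets were called in either direction, against 17.2% of all. The list was chosen with earlier results of these data known, so this larger share is no independent evidence. Shares for p53 targets outside the list are given below. The targets' median log2 fold change was -0.03, against -0.01 for all genes. As many tested targets had a positive log2 fold change (14) as a negative one (14). In 7 targets the siPOLR1F libraries all lay above the NC libraries and in 8 all below, with overlap in the other 13; of all genes tested, 18.9% lay wholly above, 19% wholly below and 37.9% either way. All 11 called targets had groups without overlap, as did DDB2, PLK2, CCNG1 and SUSD6, which were not called. With 3 libraries against 3, the exact two-sided permutation p of a single gene cannot go below 0.1.

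The calls differed in how far they rested on single libraries. Leaving out any 1 library kept the calls of ZMAT3, TNFRSF10B, XPC and AEN, whereas each of the other 7 lost its call without at least 1 library. The number of targets called higher lay between 2 and 7 and the number called lower between 2 and 4 over the 6 fits without 1 library. It was 2 and 2 without NC replicate 3, without siPOLR1F replicate 1 and without siPOLR1F replicate 3, 4 and 3 without NC replicate 1 and without siPOLR1F replicate 2, and 7 and 4 without NC replicate 2.

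**Figure D2:**
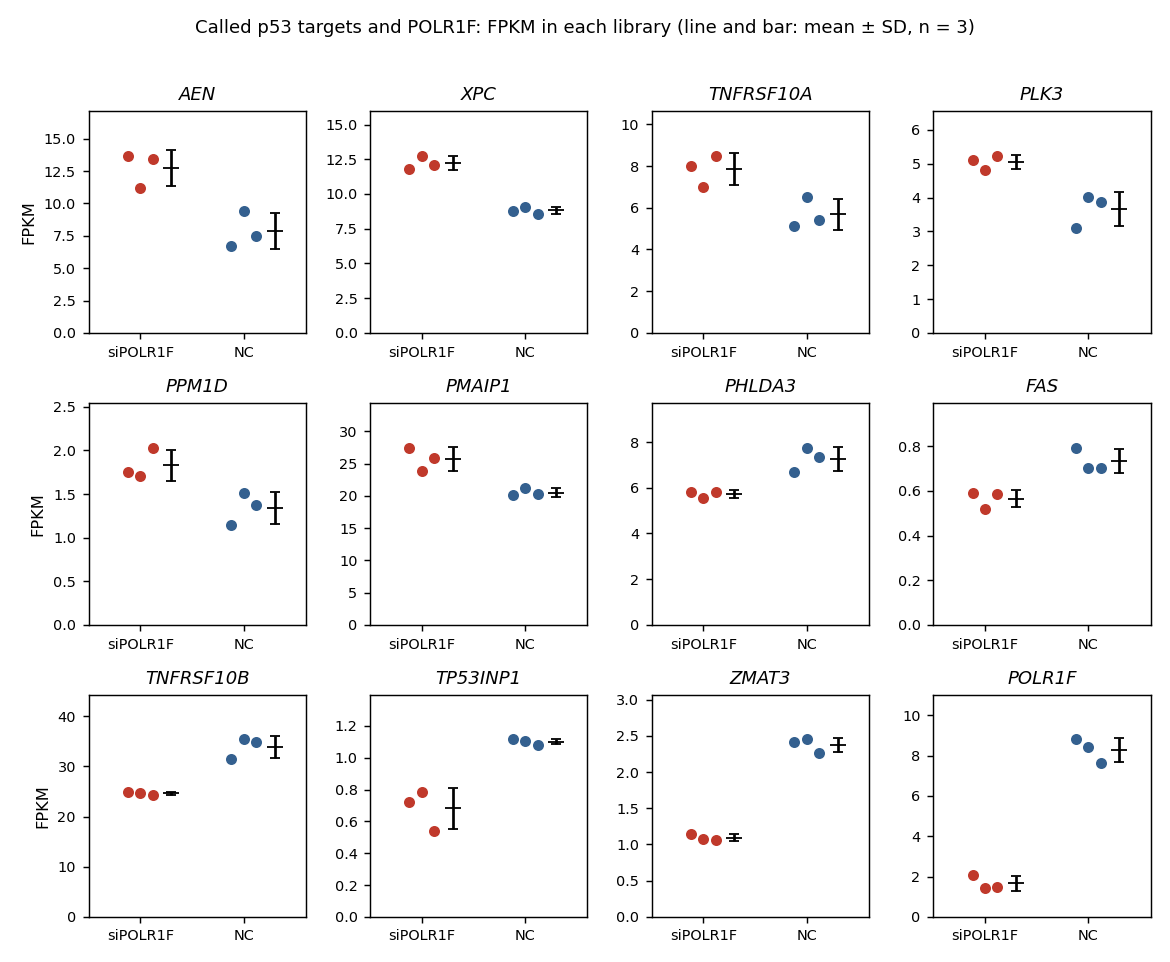
FPKM in each library for the 11 p53 targets past the test, in order of log2 fold change, and for the silenced gene POLR1F; points are libraries, and the line and bar give the mean ± SD (n = 3). All axes start at 0, and in each panel the siPOLR1F libraries lie apart from the NC libraries.

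The largest change of the list was the fall of ZMAT3 (ENSG00000172667, GRCh38 chromosome 3, 178960121 to 179071831, minus strand), which encodes a zinc finger protein that binds RNA and acts as a growth suppressor downstream of p53. It was at 1.15, 1.08 and 1.06 FPKM in siPOLR1F libraries, against 2.41, 2.45 and 2.27 FPKM in NC libraries. Every siPOLR1F library was below every NC library, and the log2 fold change was -1.11 (SE 0.08, 95% confidence interval -1.29 to -0.93; edgeR adjusted p = 1.21e-04). Among the 942 lower genes it ranked 17 by size of change, and it passed the test under every alternative.

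ZMAT3 and TNFRSF10B are the list's only genes with the heptamer CCGACTT in the 3′ UTR. This heptamer was picked in an earlier search of UTRs that used the present fold changes, so its presence in genes that fell is no independent evidence. It occurs in the longest annotated 3′ UTR of 5.37% of the lower genes, 1.59% of the higher genes and 1.99% of all 11151 genes searched. In ZMAT3 it lies 2786 bases into a 3′ UTR of 7794 bases (chr3:179022225-179022231, minus strand). In XPC, which rose, it lies in the coding sequence (chr3:14148907-14148913, minus strand). There 4.46% of all genes searched have it, with 8.23% of the lower genes and 4.23% of the higher genes. The sites of ZMAT3 and XPC are shown with flanking bases and the heptamer in capitals, from GENCODE 29 transcripts.
ZMAT3: gaaaaagcagCCGACTTaagggcttga
XPC: ctcggaaagcCCGACTTgctgagcccc
The other heptamer of that search, TCGGAGA, was found in neither the coding sequence nor the 3′ UTR of any of the 32 genes, against 7.28% and 2.18% of all genes searched. In the coding sequence, 16.3% of the higher genes and 3.31% of the lower genes have TCGGAGA. In the 3′ UTR, 5.89% of the higher genes and 1.83% of the lower genes have it. The part of these letters in the changes was not tested.

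The death receptors moved in opposite directions. These are surface receptors that start apoptosis through caspases when bound by FAS ligand or by TRAIL. TNFRSF10B, which encodes the TRAIL receptor DR5, was at 25.0, 24.7 and 24.3 FPKM in siPOLR1F libraries and at 31.5, 35.4 and 34.8 FPKM in NC libraries, and the log2 fold change was -0.45 (SE 0.06; edgeR adjusted p = 0.00164). TNFRSF10A, which encodes the other TRAIL receptor with a death domain, DR4, was at 8.01, 6.99 and 8.50 FPKM in siPOLR1F libraries and at 5.11, 6.52 and 5.42 FPKM in NC libraries, and the log2 fold change was 0.47 (SE 0.11; edgeR adjusted p = 0.0253). Each siPOLR1F library was below each NC library for TNFRSF10B and above each for TNFRSF10A. The ratio of TNFRSF10A to TNFRSF10B FPKM, formed after both values were seen, was 0.321, 0.284 and 0.350 in siPOLR1F libraries, against 0.163, 0.184 and 0.156 in NC libraries. TNFRSF10D, a decoy receptor for TRAIL outside the list, was at 17.3 ± 0.650 FPKM in siPOLR1F and 17.8 ± 1.90 FPKM in NC (SD, n = 3 each). FAS had 1214, 1080 and 1199 counts in siPOLR1F libraries and 1651, 1403 and 1445 in NC libraries, and the log2 fold change was -0.37 (SE 0.09; edgeR adjusted p = 0.0283). TNFRSF10A did not pass without NC replicate 1 (adjusted p = 0.0692), NC replicate 3 (0.0841), siPOLR1F replicate 1 (0.0787) or siPOLR1F replicate 3 (0.0977). FAS passed only with NC replicate 2 left out among these 6 fits (0.0559 to 0.0941 without each other library), and its adjusted p was 0.198 by limma on log2(FPKM + 1).

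Of the list's 3 genes for BH3-only and pore-forming proteins, which act in the mitochondrial arm of apoptosis, only PMAIP1 passed. It encodes NOXA, a BH3-only protein that blocks the survival factor MCL1, and was at 27.5, 23.8 and 25.9 FPKM in siPOLR1F libraries, against 20.1, 21.3 and 20.2 FPKM in NC libraries. All siPOLR1F libraries were above all NC libraries, and the log2 fold change was 0.34 (SE 0.07; edgeR adjusted p = 0.0167). The call ended without NC replicate 3 (adjusted p = 0.0538), siPOLR1F replicate 1 (0.0585) or siPOLR1F replicate 3 (0.0609). BBC3, which encodes the BH3-only protein PUMA, was low, at 0.956 ± 0.0540 FPKM in siPOLR1F and 0.841 ± 0.118 FPKM in NC (SD, n = 3 each), with overlapping groups and a 95% confidence interval of the log2 fold change from -0.21 to 0.58. BAX, whose product forms pores in the outer mitochondrial membrane, was at 13.5 ± 1.16 FPKM in siPOLR1F and 13.3 ± 0.434 FPKM in NC, with an interval from -0.15 to 0.20.

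Other targets tied to apoptosis and survival included the highest rise and the second-largest fall of the list. AEN (ENSG00000181026, chromosome 15, 88621337 to 88632281, plus strand), which encodes a nuclease that degrades DNA in apoptosis and whose promoter pair of decamers is shown above, was at 13.7, 11.2 and 13.4 FPKM in siPOLR1F libraries and at 6.69, 9.40 and 7.51 FPKM in NC libraries. The groups did not overlap, and the log2 fold change was 0.71 (SE 0.13; edgeR adjusted p = 0.00866). TP53INP1, which encodes a stress protein that promotes p53 activity and autophagy, had 283, 312 and 211 counts in siPOLR1F libraries, against 444, 421 and 425 in NC libraries. Its log2 fold change was -0.68 (SE 0.17; edgeR adjusted p = 0.0273), with the lowest value in siPOLR1F replicate 3. PHLDA3, which encodes an inhibitor of AKT at the membrane, was at 5.83, 5.54 and 5.81 FPKM in siPOLR1F libraries and at 6.69, 7.76 and 7.34 FPKM in NC libraries (log2 fold change -0.33, SE 0.08; edgeR adjusted p = 0.0240). TP53INP1 passed only without siPOLR1F replicate 2 among the fits without 1 library (adjusted p = 0.0600 to 0.0699 without each other one), and PHLDA3 only without NC replicate 1 (0.0610 to 0.0841 without each other one). The survival factor gene TRIAP1 was at 13.8 ± 0.589 FPKM in siPOLR1F and 13.8 ± 0.185 FPKM in NC (SD, n = 3 each; interval of the log2 fold change -0.16 to 0.17), and TP53I3, an oxidoreductase gene, had overlapping groups of 166 to 278 counts in siPOLR1F and 192 to 298 counts in NC.

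Among DNA repair genes XPC rose and the other 4 did not pass. XPC (ENSG00000154767, chromosome 3, 14145147 to 14178601, minus strand) encodes the damage sensor of global nucleotide excision repair. It was at 11.8, 12.8 and 12.1 FPKM in siPOLR1F libraries, against 8.80, 9.07 and 8.56 FPKM in NC libraries, and the log2 fold change was 0.48 (SE 0.06; edgeR adjusted p = 0.00182). XPC passed under every alternative. Its exons overlap those of 3 genes on the other strand, AC093495.1 over 23.8% of their length, AC090004.1 over 8.61% and LSM3 over 6.63%, with mean counts of 48.7, 21.8 and 3119.2 per library for these genes and 3388.3 for XPC. With no strand setting stated, reads there cannot be assigned to 1 of the genes. The same holds for TNFRSF10A, which AC100861.1 overlaps over 9.01% and TNFRSF10A-AS1 over 7.59% of its exons, and for FAS, which ACTA2 overlaps over 8.93%. On the same strand, AC096677.2 overlaps PHLDA3 over 19.1% and AC008012.1 overlaps TIGAR over 42.6% of their exons. Neither AC096677.2 nor AC008012.1 has an entry in the deposited table. Further genes of the list have overlaps too, among them FBXO22 with NRG4 on the other strand (16.2%). DDB2, whose product hands ultraviolet damage over to XPC, differed from XPC in direction, at 4.88, 5.82 and 4.81 FPKM in siPOLR1F libraries and 6.04, 5.89 and 6.89 FPKM in NC libraries. The groups did not overlap, but it did not pass (log2 fold change -0.27, SE 0.10; edgeR adjusted p = 0.0902). RRM2B, which encodes a ribonucleotide reductase subunit, had a log2 fold change of -0.22 (SE 0.10), POLH, the translesion polymerase gene, of -0.14 (SE 0.09) and GADD45A of 0.11 (SE 0.10), none of the 3 past the test. In GADD45A the value of siPOLR1F replicate 1, 65.9 FPKM, stood above the other 5 libraries, which lay between 50.5 and 54.0 FPKM.

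Of the genes for growth arrest, polo-like kinases and the stress cytokine, PLK3 passed and 3 did not. PLK3, a stress-activated kinase, was at 5.10, 4.82 and 5.24 FPKM in siPOLR1F libraries, against 3.09, 4.02 and 3.88 FPKM in NC libraries, with no overlap, and the log2 fold change was 0.47 (SE 0.11; edgeR adjusted p = 0.0247). It did not pass without NC replicate 3 (adjusted p = 0.0530) or without siPOLR1F replicate 1 (0.0738), 2 (0.0541) or 3 (0.0920). Its relative PLK2 was at 30.6, 27.6 and 29.3 FPKM in siPOLR1F libraries and at 38.5, 31.9 and 32.1 FPKM in NC libraries, also without overlap but in the other direction, and did not pass (log2 fold change -0.22, SE 0.08; edgeR adjusted p = 0.107). BTG2, an antiproliferative gene, was at 1.79 ± 0.121 FPKM in siPOLR1F and 1.65 ± 0.365 FPKM in NC, and GDF15, a secreted stress cytokine, at 1.06 ± 0.226 FPKM in siPOLR1F and 1.11 ± 0.390 FPKM in NC (SD, n = 3 each). For GDF15 the 95% confidence interval of the log2 fold change, -0.73 to 0.60, leaves room for a sizeable change in either direction.

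None of the 3 metabolic and redox genes passed the edgeR test, and none of the 3 had an unadjusted p below 0.05. SESN1, which restrains mTORC1, was at 1.43 ± 0.172 FPKM in siPOLR1F and 1.67 ± 0.122 FPKM in NC, and the ferredoxin reductase gene FDXR at 2.68 ± 0.298 FPKM in siPOLR1F and 2.90 ± 0.275 FPKM in NC (SD, n = 3 each). TIGAR, whose product lowers glycolytic flux, had 1012, 880 and 944 counts in siPOLR1F libraries and 694, 937 and 703 in NC libraries. NC replicate 2 lay inside the siPOLR1F range, and without it the log2 fold change of 0.28 became 0.45 (edgeR adjusted p = 0.228 with all libraries and 0.0368 without NC replicate 2).

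Genes of feedback and protein turnover also divided. PPM1D, which encodes the phosphatase WIP1 that switches off p53 signalling, had 1142, 1129 and 1330 counts in siPOLR1F libraries, against 765, 964 and 899 in NC libraries, and the log2 fold change was 0.45 (SE 0.12; edgeR adjusted p = 0.0372). Among the fits without 1 library it passed only without NC replicate 2, and its adjusted p was 0.0624 to 0.139 without each other library and 0.0709 by limma on log2(FPKM + 1). CCNG1, cyclin G1, which recruits a phosphatase to MDM2, was at 25.3, 27.1 and 24.1 FPKM in siPOLR1F libraries and at 32.8, 27.8 and 31.7 FPKM in NC libraries. It missed the threshold narrowly with no overlap between the groups (log2 fold change -0.26, SE 0.08; edgeR adjusted p = 0.0506), and passed with library size alone as scaling (0.0469), with a filter at 1 FPKM (0.0436), by DESeq2 (0.0130) and without NC replicate 2 (0.0228). SUSD6, a membrane protein gene, was at 3.88, 3.67 and 4.23 FPKM in siPOLR1F libraries and 2.34, 3.18 and 3.65 FPKM in NC libraries and did not pass (log2 fold change 0.37, SE 0.15; edgeR adjusted p = 0.119; by DESeq2 adjusted p = 0.0462). FBXO22, a ubiquitin ligase subunit gene, was at 2.98 ± 0.165 FPKM in siPOLR1F and 2.98 ± 0.111 FPKM in NC (SD, n = 3 each).

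**Figure D3:**
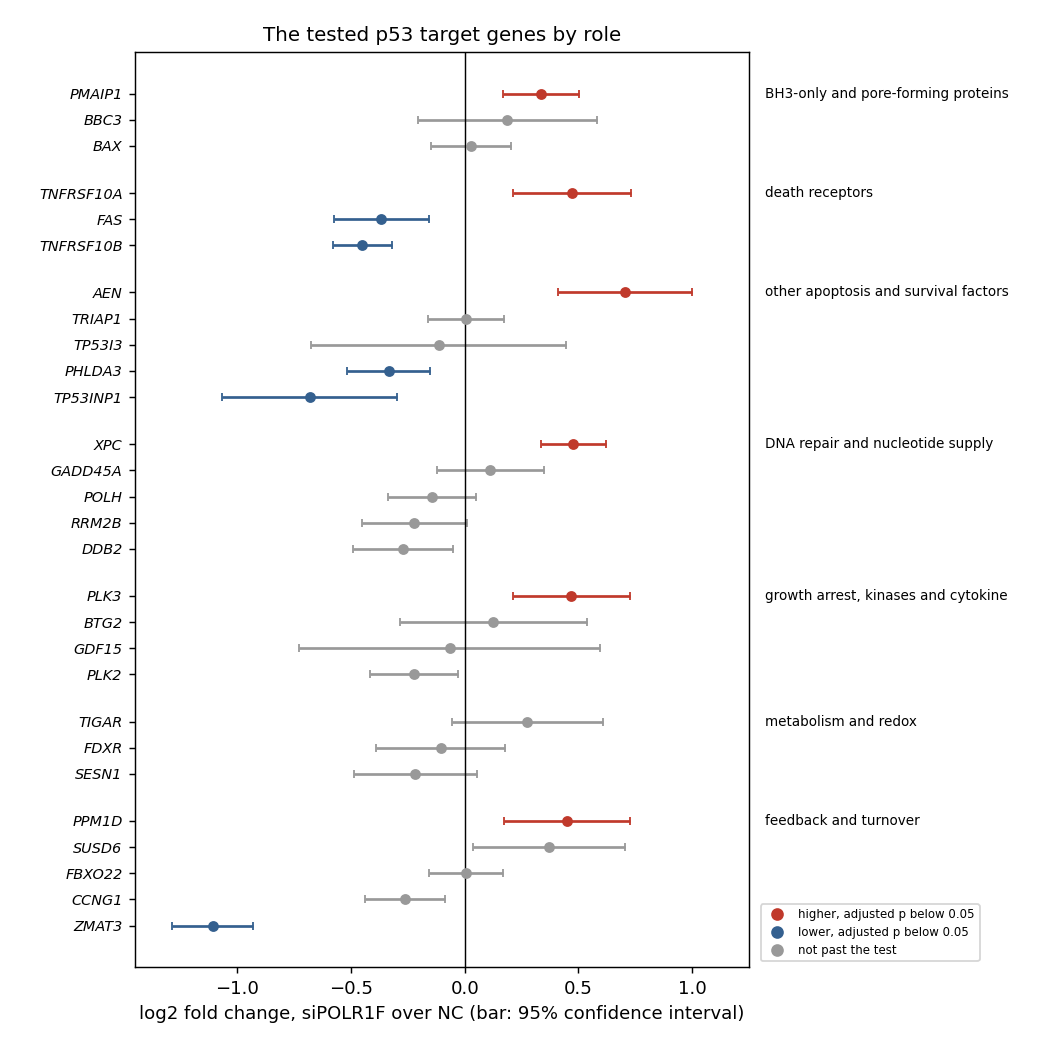
Log2 fold change of siPOLR1F over NC for the 28 tested p53 targets, grouped by role, with 95% confidence intervals from the edgeR fit. Coloured points passed the adjusted test. Every role but that of the BH3-only and pore-forming proteins holds points on both sides of 0. The points run from -1.11 for ZMAT3 to 0.71 for AEN.

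The genes that act on p53 were mostly not past the test. TP63 and TP73, which encode relatives of p53, stayed below 0.1 FPKM in every library. Of 27 p53 regulators tested, 3 rose (11.1%) and 1 fell (3.7%), close to the background shares of 10.3% and 6.94%. HIPK2, a kinase that phosphorylates p53, rose by 0.54 on the log2 scale (SE 0.09; edgeR adjusted p = 0.00547), and MDM2 was at 5.61, 5.66 and 5.70 FPKM in siPOLR1F libraries, against 4.44, 5.01 and 4.41 FPKM in NC libraries (0.30, SE 0.07; edgeR adjusted p = 0.0231). The MDM2 call ended on leaving out any library but NC replicate 2 (adjusted p = 0.0561 to 0.0787). The acetyltransferase gene CREBBP rose by 0.40 and PML, a nuclear body scaffold gene, had a log2 fold change of -0.26; among the fits without 1 library, CREBBP passed only without NC replicate 2 (adjusted p = 0.0542 to 0.130 without each other one) and PML only without NC replicate 1 (0.0675 to 0.106 without each other one). RPL5 was at 266 ± 7.35 FPKM in siPOLR1F and 272 ± 6.49 FPKM in NC, and RPL11 at 285 ± 9.63 FPKM in siPOLR1F and 276 ± 6.56 FPKM in NC (SD, n = 3 each).

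Further p53 targets outside the list also held genes called in both directions. Of 39 tested, 4 rose (10.3%) and 5 fell (12.8%), against 10.3% and 6.94% of all genes tested, and 23.1% were called in either direction, against 17.2% of all. Their median log2 fold change was -0.03. CDKN1A, which encodes the cyclin-dependent kinase inhibitor p21 and is the best-known target of p53, had 2487, 3040 and 2672 counts in siPOLR1F libraries and 2886, 3146 and 3629 in NC libraries, with overlapping groups (log2 fold change -0.24, SE 0.10; edgeR adjusted p = 0.137). Besides MDM2, the rises included PERP, a desmosomal membrane protein (log2 fold change 0.60), and the growth factor gene TGFA (0.41). The falls included FUCA1, a lysosomal fucosidase (-0.56), RPS27L (-0.45), CYFIP2 (-0.44) and NINJ1, which mediates plasma membrane rupture (-0.32). Of these, PERP and CYFIP2 kept their calls under every alternative. Among the fits without 1 library, TGFA passed only when siPOLR1F replicate 1 was left out (adjusted p = 0.0637 to 0.132 without each other one). FUCA1 lost its call without replicate 1 or 3 of either group (0.0760 to 0.148), RPS27L without NC replicate 1 or siPOLR1F replicate 1 or 3 (0.0755 to 0.108) and NINJ1 without NC replicate 3 or siPOLR1F replicate 1 or 3 (0.0689 to 0.0797). In the table's own KEGG annotation of p53 signalling, 8 of 64 tested genes rose (12.5%) and 7 fell (10.9%), against 10.3% and 6.94% of all genes tested. Without the 14 genes of the list among them, 5 of 50 rose (10%) and 4 fell (8%), near those background shares.

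Several p53 targets, among them PMAIP1 and TNFRSF10B, are also known to respond to the transcription factors ATF4 and CHOP of the integrated stress response. Of 14 genes of that response tested, 4 rose (28.6%) and 1 fell (7.14%), against 10.3% and 6.94% of all genes tested. In 6 of the 14 all siPOLR1F libraries lay above the NC libraries and in 4 all below, where 18.9% and 19% of all genes tested did so. Those below included DDIT4 (log2 fold change -0.36), CHAC1 (-0.31) and ASNS (-0.23), which did not pass. PPP1R15A was at 59.8, 42.9 and 47.1 FPKM in siPOLR1F libraries, against 27.2, 26.6 and 26.3 FPKM in NC libraries (log2 fold change 0.91, SE 0.11; edgeR adjusted p = 0.00154), and TRIB3 rose by 0.71. DDIT3, the gene of CHOP, was at 6.71, 4.48 and 4.44 FPKM in siPOLR1F libraries and at 3.37, 1.59 and 2.33 FPKM in NC libraries (1.10, SE 0.29; edgeR adjusted p = 0.0320), a call that ended on leaving out any library but NC replicate 1 (0.0535 to 0.104). CEBPB rose by 0.33 and VLDLR had a log2 fold change of -0.24; CEBPB lost its call without replicate 1 or 3 of either group (adjusted p = 0.0800 to 0.111), and VLDLR without any library but NC replicate 2 (0.0610 to 0.142). ATF4 itself was at 153 ± 3.88 FPKM in siPOLR1F and 144 ± 5.17 FPKM in NC (SD, n = 3 each) and did not pass. The part of this response in the changes of the p53 targets was not tested.

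**Figure D4:**
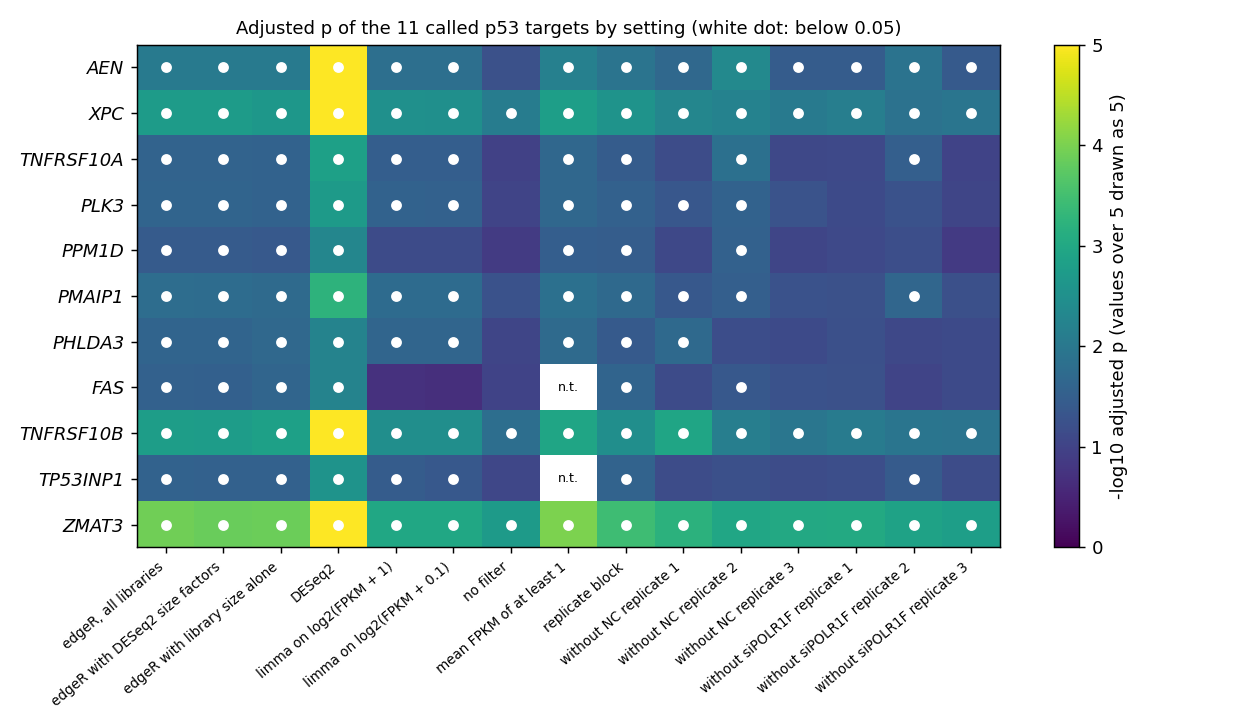
Adjusted p, as -log10, of the 11 called p53 targets (rows, in order of log2 fold change) under each analysis setting (columns); a white dot marks a value below 0.05 and n.t. a gene not tested under that filter. ZMAT3, TNFRSF10B and XPC have a dot in every column and AEN in all but the column without a filter.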

How the data were processed

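The tools named in the submitters' processing notes are fastp, HISAT2 and StringTie, and the build is GRCh38 (hg38); no source used here gives their versions, the annotation or the strand setting. The authors deposited 1 table that holds, for every gene, a whole-number count and an FPKM for each library, and both were used as deposited. The sample titles and library names gave group and replicate number, and they name no batch.

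Differential expression was tested on the counts of the whole table with edgeR 4.0.16 (TMM scaling, glmQLFit and glmQLFTest, two-sided; R 4.3.3) for 13564 genes whose FPKM averaged 0.5 or more, which held 99.4% of the counts; edgeR's common estimate of the biological coefficient of variation came to 0.137. Benjamini-Hochberg adjustment ran over these genes, with 0.05 as threshold. Each SE is the log2 fold change's size divided by the root of the F statistic, and the 95% interval uses the fit's degrees of freedom. The test was checked on simulated counts. All 32 genes are accounted for. Of the other lists, genes past the test are named, with other genes of known role for context; some genes counted there are not reported here by name. The genes and lists were chosen with earlier results of these data known, and the KEGG count and the pair ratio after these values were seen. Promoters came from RefSeq (GRCh38.p14) and transcripts from GENCODE 29. Alternatives were DESeq2 1.42.0, limma 3.58.1 on log2(FPKM + 1) and log2(FPKM + 0.1), other scalings and filters, a replicate term and leaving out each library. No pair of libraries had counts within sampling noise of each other, the lowest chi-square per degree of freedom being 20.5.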

Additional observations from a re-analysis of the deposited data

How the results depend on the processing

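With DESeq2 size factors or library size alone in edgeR, with DESeq2, with limma at either pseudocount, with a filter at 1 FPKM and with the replicate block, the numbers of p53 targets called higher (5 to 7, against 6) and lower (4 to 6, against 5) stayed within 1.5 times. With no filter on low values they fell to 1 higher and 2 lower, and over all genes to 663 higher and 313 lower, against 1391 and 942. Without 1 library each, the targets called were 2 to 7 higher and 2 to 4 lower, and over all genes 730 to 1326 higher and 423 to 841 lower. Of the 11 called targets, 3 passed under every alternative, 7 lost the call without some library and 8 lost it with no filter; the causes were not tested. No call of a target reversed its direction under these settings. The replicate numbers pair nothing by the labels. The deviations of same-numbered libraries correlated at 0.293, 0.016 and 0.274 (Pearson's r across genes, which are not independent replicates). Those of differently numbered libraries correlated at values from -0.277 to 0.006. Each deviation is taken from the mean of its own group, so the deviations of a group cancel for each gene. Positive values for some pairs therefore push those of other pairs down, and part of this contrast is built in. The main test held no replicate term. With the replicate block 6 targets were higher and 6 lower, PLK2 being added (adjusted p = 0.0413), and over all genes 1517 were higher and 1125 lower. Genes under about 20 counts per library, such as TNFRSF10C and SPATA18, are too shallow for a comparison.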
